A study of Homo sapiens with 12 samples.

Results

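The 54 genes described here encode large regulators of chromatin, BPTF among them: ATP-dependent nucleosome remodellers and their signature subunits, histone methyltransferases of the SET-domain family with DOT1L, histone demethylases, and histone acetyltransferases with TRRAP. They were chosen by name, as 54 of the 59385 gene names in the count table, and all 54 passed the filter on low counts that left 18166 genes to test. RNA was sequenced from HEK293T cells, a human embryonic kidney line, that carried a doxycycline (Dox)-inducible short hairpin RNA, either a non-silencing one (shCtrl) or one against PRRC2B (shPRRC2B). PRRC2B is an RNA-binding protein, and the question was how its loss alters the loading of mRNAs onto ribosomes. From each line, after 36 h of Dox in both, poly(A)-enriched total RNA and polysome RNA (the pooled heavy fractions of a sucrose gradient, where mRNAs with several ribosomes sediment) were sequenced in 3 biological replicates, giving 4 groups and 12 libraries. Each line was a single stable clone, so an effect of the hairpin and a difference between the clones cannot be told apart.

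Remodelling ATPases of the SWI/SNF, ISWI, CHD and INO80 families use ATP to slide, evict or exchange nucleosomes, and their large partner subunits steer them to marked or acetylated chromatin. Histone methyltransferases and acetyltransferases write marks on histone tails, demethylases remove the methyl marks, and many of these enzymes are recruited by the marks that others leave. Several act as dosage-sensitive genes in development and are often mutated in cancer, and most are encoded by long mRNAs with long open reading frames.

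Library totals lay between 9855734 and 20837542 counts, and levels are given as CPM, counts relative to the library size after TMM scaling, which sets the bulk of genes equal between libraries. The targeted PRRC2B mRNA was at 272, 313 and 258 CPM in shCtrl total RNA and at 97.9, 103 and 100 CPM in shPRRC2B total RNA, a log2 change of -1.49 (SE 0.17, adjusted p = 4.25e-06 by edgeR's quasi-likelihood test), and its TE did not pass the test (log2 change 0.16, adjusted p = 0.694). With a smooth trend on transcript length taken out of each library, the TE of PRRC2B was higher in shPRRC2B (log2 change 0.92, adjusted p = 0.0109, edgeR). Genes known from HEK293T cells (NEFM, NEFL, INA, PAX2, LIN28B, VIM) were detected in all 12 libraries, while PTPRC, COL1A2 and KRT5, markers of blood, fibroblasts and squamous epithelium, had 0 to 2 counts in each. ALB (liver) had at most 5 and HBA1 (erythroid) at most 19. Several of the HEK293T genes differed between the lines in total RNA without overlap. Mean levels in shCtrl and shPRRC2B were 286 and 96.5 CPM for NEFM, 175 and 87.5 CPM for NEFL, 29.3 and 17.7 CPM for INA, 67.2 and 141 CPM for LIN28B, and 122 and 237 CPM for VIM. The 54 genes held 0.832% to 0.864% of the counts of a shCtrl total library and 0.957% to 0.958% of a shPRRC2B total library. In polysome RNA they held 0.0626% to 0.0679% in shCtrl and 0.0327% to 0.0457% in shPRRC2B, so their polysome levels rest on few reads, with a median of 121.5 counts per gene and library in shCtrl and 66.5 in shPRRC2B.

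The study's lists of PRRC2B contact sites, mapped by PAR-CLIP with tagged PRRC2B, name 10 of the 54 genes in the copies used here, which do not hold every entry: BPTF with the full-length protein and with its RNA-binding fragment P2, BAZ2B, CHD8, CREBBP, KAT6A, SETD5, SMARCA4 and SRCAP with the full-length protein, and KDM5C and TRRAP with P2. BPTF (ENSG00000171634.19, chr17:67825503-67984378, GRCh38, plus strand) has its site in exon 1, within the coding sequence, from coding position 432 of 8760. The 4 windows of 100 bases are shown because they hold the longest uninterrupted runs of A and G among the sites of these genes labelled as coding only. The SETD5 site, labelled as both coding and 3' UTR, was not read. They were read from GRCh38 on the strand of the mRNA, 5′ to 3′, and capitals mark the longest run of only A and G in each window: chr17:67826156-67826255 (plus strand) for BPTF, chr19:11007937-11008036 (plus strand) for SMARCA4, chr14:21428073-21428172 (minus strand) for CHD8 and chr16:3731841-3731940 (minus strand) for CREBBP.
BPTF: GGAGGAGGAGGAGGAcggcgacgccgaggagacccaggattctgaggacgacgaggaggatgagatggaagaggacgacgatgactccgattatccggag
SMARCA4: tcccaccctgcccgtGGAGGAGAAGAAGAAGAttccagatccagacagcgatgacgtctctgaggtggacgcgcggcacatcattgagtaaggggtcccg
CHD8: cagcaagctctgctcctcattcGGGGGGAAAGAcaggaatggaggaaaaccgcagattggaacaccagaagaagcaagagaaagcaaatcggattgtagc
CREBBP: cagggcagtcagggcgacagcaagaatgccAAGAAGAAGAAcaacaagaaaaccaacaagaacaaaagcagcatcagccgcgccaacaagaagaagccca
The run was 17 bases long in SMARCA4, 15 in BPTF and 11 in CHD8 and in CREBBP, and A and G made up 72 of the 100 bases of the BPTF window. The SMARCA4 and CREBBP windows reach past their coding exons into intron sequence, with 87 and 97 of 100 bases inside the exon. A sequence was read for 442 sites labelled as coding only, which are not all the coding sites of the lists. Over these 442 sites the median longest run of a single kind, A and G or C and T, was 8 bases. A run of at least 10 was held by 158 of them (35.7%). These letters describe the windows and were not tested as sites of action.

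Upon PRRC2B knockdown the polysome loading of most of these genes fell. Translation efficiency (TE) is the polysome level divided by the total RNA level, and its change between the lines was tested as an interaction in one fit over the 12 libraries. Calls required an adjusted p below 0.05 together with a log2 change larger than 0.5 in size. TE fell for 41 of the 54 genes and rose for 1, KDM3A, where 16.4% of all genes tested were called lower and 10.7% higher. The median log2 TE change was -1.13 over the 54 genes and -0.03 over all genes. The median polysome-to-total ratio of the genes went from 13.4% in shCtrl to 6.99% in shPRRC2B cells, and the number of genes under 5% went from 1 to 19. The ratio was lower in shPRRC2B for 47 genes and higher for 7. Of all 18166 genes tested, 9384 had a TE change below 0 and 8782 above 0. The number under 5% was not counted over all genes. The percents depend on the scaling between fractions: with libraries scaled by their total counts the medians were 6.69% and 3.64%, and 12 and 37 genes were under 5%.

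**Figure D1:**
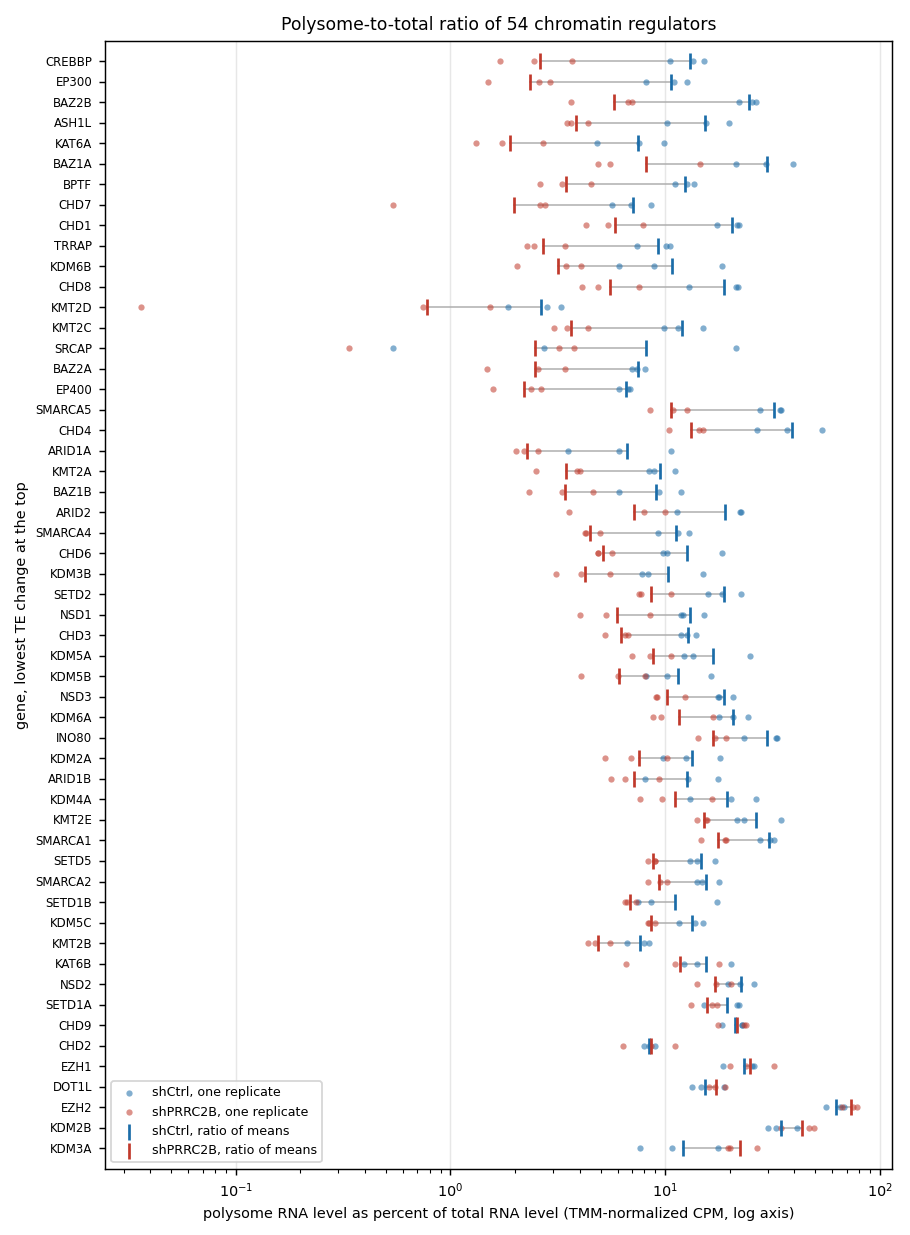
Polysome RNA level as a percent of the total RNA level for each of the 54 genes (log axis), with 1 point per replicate number (polysome library over the total library of the same number) and a tick for the ratio of the group means, shCtrl in blue and shPRRC2B in red. Genes are ordered by TE change, from CREBBP at the top (13.0% in shCtrl and 2.61% in shPRRC2B) to KDM3A at the bottom (12.1% and 22.2%).

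Large remodeller subunits without the ATPase were lower in TE throughout: 8 of 8 fell, with a median log2 change of -1.56. BPTF, the subunit of the NURF remodeller that reads methylated and acetylated histone tails, was at 121, 111 and 127 CPM in shCtrl total RNA and at 169, 171 and 172 CPM in shPRRC2B total RNA. In polysome RNA BPTF was at 13.4, 14.0 and 17.2 CPM in shCtrl and at 7.65, 5.64 and 4.47 CPM in shPRRC2B. The groups did not overlap in either fraction, with total RNA higher and polysome RNA lower in shPRRC2B. The log2 TE change of BPTF was -1.83 (SE 0.22, adjusted p = 3.69e-05, edgeR), and its polysome-to-total ratio went from 12.4% to 3.47%. BPTF kept this TE call in 12 of 12 fits that left out 1 library (log2 -2.13 to -1.70).

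The BAZ proteins are the large partners of the ISWI ATPases, with bromodomains that bind acetylated histones, and all 4 of them fell in TE: BAZ2B by 2.09, BAZ1A by 1.86, BAZ2A by 1.58 and BAZ1B by 1.42 on the log2 scale. BAZ2B was the least abundant of them, with 45, 31 and 47 polysome counts in shCtrl and 24, 11 and 20 in shPRRC2B, against 422, 418 and 298 and then 633, 807 and 647 counts in total RNA. Its polysome groups did not overlap in CPM, and its TE change had an SE of 0.33 (adjusted p = 0.000239, edgeR). The ARID subunits, which bind DNA in SWI/SNF complexes, fell as well. ARID1A, a frequent target of mutation in cancer, went from 92.9, 95.8 and 83.9 CPM to 184, 182 and 182 CPM in total RNA, the largest rise among the 54 genes (log2 1.01, SE 0.18, adjusted p = 0.000369, edgeR). Its polysome level did not pass the test, at 3.28, 5.86 and 8.98 CPM in shCtrl and 3.70, 4.68 and 4.0 CPM in shPRRC2B, overlapping groups, and its TE fell by 1.54. ARID2 fell by 1.37 in TE and ARID1B by 0.82, the latter with its call kept in 3 of the 12 fits without 1 library.

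Among remodelling ATPases TE fell for 12 of 15, with a median log2 change of -1.32. SMARCA4 (BRG1), a SWI/SNF motor, was at 312, 333 and 301 CPM in shCtrl and 445, 435 and 412 CPM in shPRRC2B total RNA. In polysome RNA SMARCA4 was at 40.2, 30.7 and 34.7 CPM and then 19.0, 18.4 and 20.5 CPM, without overlap in either fraction, for a log2 TE change of -1.32 (SE 0.18, adjusted p = 6.98e-05, edgeR). Its paralog SMARCA2 (BRM) fell by 0.74. Of the ISWI motors, SMARCA5 fell by 1.57 and SMARCA1 by 0.79 in TE, and SMARCA1 was also lower in total RNA (110, 105 and 117 CPM against 72.0, 77.1 and 75.9 CPM, log2 -0.57, adjusted p = 0.00231, edgeR). Of the CHD family, CHD7 and CHD1 had the lowest values (-1.81 and -1.79), followed by CHD8 (-1.75), CHD4 (-1.55), CHD6 (-1.30) and CHD3 (-1.05), the last a motor of the NuRD complex like CHD4. CHD7 had 47, 39 and 8 polysome counts in shPRRC2B and an SE of 0.38 in TE, and the order of these values was not tested. CHD8, a repressor of Wnt target genes, had the second largest rise in total RNA (119, 120 and 125 CPM against 224, 226 and 207 CPM, log2 0.85), while in polysome RNA it went from 25.9, 15.4 and 26.7 CPM to 17, 9.27 and 10.1 CPM, with overlapping groups.

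CHD9 and CHD2 did not pass the TE test, with log2 changes of 0.01 and 0.03 (adjusted p = 0.985 and 0.961, edgeR). CHD9 was at 49.0, 48.8 and 53.3 CPM and then 67.1, 73.4 and 68.7 CPM in total RNA. Its polysome level moved by as much, from 11.1, 11.2 and 9.76 CPM to 16, 12.9 and 16 CPM, higher in shPRRC2B in both fractions without overlap. Of the INO80-family motors EP400 fell by 1.58 and INO80 by 0.84, and SRCAP, which deposits the variant H2A.Z, did not pass the test. SRCAP had 5, 37 and 1 polysome counts in shCtrl and 12, 11 and 1 in shPRRC2B, and its log2 TE change of -1.67 (SE 0.85, adjusted p = 0.156, edgeR) became 0.56 without shCtrl polysome replicate 2 and passed the test without shCtrl polysome replicate 1 or 3 (-2.17 and -2.24). INO80 lost its call without shPRRC2B total replicate 1. EP400 has near-identical sequence elsewhere in the genome, and its counts are uncertain to that extent.

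**Figure D2:**
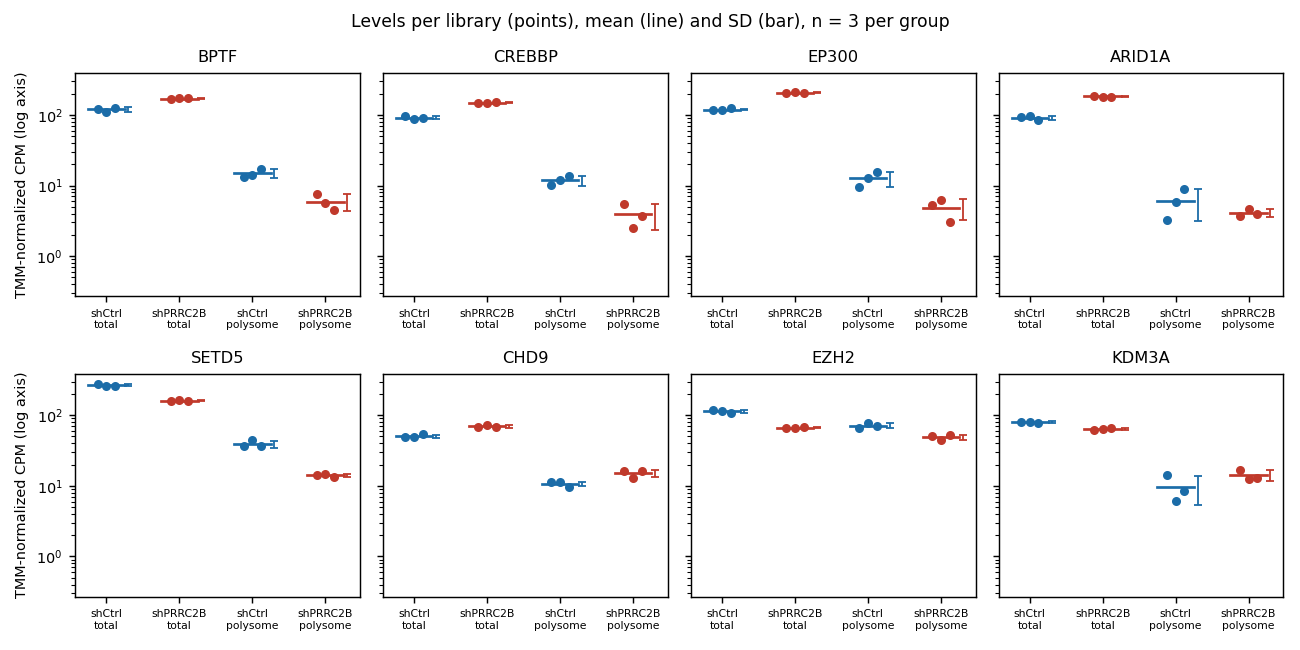
TMM-normalized CPM (log axis) of 8 genes in each of the 12 libraries, by line and fraction, with the mean (line) and the SD (bar) of 3 replicates. BPTF, CREBBP and EP300 were higher in total RNA and lower in polysome RNA of the shPRRC2B line, ARID1A rose in total RNA, SETD5 and EZH2 fell in both fractions, CHD9 lay higher in both, and the polysome levels of KDM3A overlapped.

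In the acetyltransferase group, which holds the lowest values of the 54 genes, 4 of 5 genes fell in TE (median log2 change -1.94). CREBBP (CBP) and EP300 (p300), paralogous co-activators that acetylate histones at enhancers, ranked first and second among the 54 genes. CREBBP was at 95.2, 87.7 and 91.1 CPM in shCtrl and 149, 147 and 152 CPM in shPRRC2B total RNA, and at 10.0, 11.8 and 13.9 CPM and then 5.50, 2.48 and 3.71 CPM in polysome RNA. EP300 was at 118, 117 and 124 CPM and then 203, 213 and 205 CPM in total RNA, and at 9.55, 12.8 and 15.6 CPM and then 5.25, 6.21 and 3.04 CPM in polysome RNA. For both genes every shPRRC2B library lay above shCtrl in total RNA and below it in polysome RNA. The log2 TE change was -2.30 for CREBBP (SE 0.26, adjusted p = 2.39e-05) and -2.18 for EP300 (SE 0.27, adjusted p = 3.89e-05) by edgeR. TRRAP, the pseudokinase scaffold of acetyltransferase complexes, fell by 1.78. KAT6A (MOZ) fell by 1.94, from 43, 58 and 78 polysome counts to 34, 16 and 20, whereas its paralog KAT6B (MORF) did not pass the test (-0.40, adjusted p = 0.386) until shPRRC2B polysome replicate 1 was left out (-0.86).

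In the SET-domain family and DOT1L, TE fell for 10 of 16 genes (median log2 change -0.78). ASH1L, which methylates histone H3 at lysine residues of active genes, had the lowest value, -2.00 (SE 0.30, adjusted p = 0.000173, edgeR). Its total RNA groups overlapped (71.6, 74.0 and 82.2 CPM against 76.4, 76.0 and 73.7 CPM), and it had the largest fall of the 54 genes in polysome RNA, from 7.31, 11.5 and 16.3 CPM to 2.67, 2.77 and 3.23 CPM. Of the enzymes that methylate lysine residues at promoters and enhancers, KMT2D fell by 1.75, KMT2C by 1.72, KMT2A by 1.46 and KMT2B by 0.63, the last with its call kept in 9 of 12 fits without 1 library. KMT2C was at 130, 117 and 134 CPM in shCtrl and 127, 129 and 125 CPM in shPRRC2B total RNA and fell by 1.72 in polysome RNA, though it has near-identical copies of parts of its sequence elsewhere in the genome. KMT2D, the longest transcript of the set at 20635 nt, had 38, 49 and 56 polysome counts in shCtrl and 23, 44 and 1 in shPRRC2B, and its TE call was lost in DESeq2, while fits without 1 library gave -2.72 to -1.24.

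NSD1, SETD2, NSD3, KMT2E and SETD5 fell by 1.13, 1.13, 0.87, 0.82 and 0.75 in TE. SETD5 was lower in both fractions, from 280, 260 and 262 CPM to 161, 162 and 160 CPM in total RNA and from 36.5, 44.3 and 36.9 CPM to 14.4, 14.5 and 13.3 CPM in polysome RNA, and neither pair of groups overlapped. The polysome fall of SETD5 (log2 -1.48) was thus larger than its fall in total RNA (-0.73), which is what the TE test measures. The catalytic subunits of PRC2, EZH2 and EZH1, which write the repressive methyl mark on histone H3, did not pass the TE test (0.22 and 0.09), nor did DOT1L (0.17), SETD1A (-0.31), NSD2 (-0.39) or SETD1B (-0.68). EZH2 fell in total RNA (118, 113 and 108 CPM against 65.1, 66.6 and 68.9 CPM, log2 -0.76) and in polysome RNA (65.7, 76.9 and 70.3 CPM against 50.7, 44.3 and 51.7 CPM, log2 -0.54). It had the shortest transcript of the 54 genes, 2654 nt, and the highest polysome-to-total ratio, 62.7% in shCtrl and 73.1% in shPRRC2B.

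Of the histone demethylases 7 of 10 fell in TE and 1 rose (median log2 change -0.83). KDM6B (JMJD3), which removes the mark that PRC2 writes, had the lowest value, -1.75, with 64, 41 and 102 polysome counts in shCtrl and 24, 26 and 14 in shPRRC2B. KDM3B fell by 1.28, KDM5A by 0.94, KDM5B by 0.92, KDM6A by 0.84, KDM2A by 0.83 and KDM5C by 0.64. Several of these calls were close to the threshold: KDM2A kept its call in 2 of 12 fits without 1 library, KDM5B in 4 and KDM6A in 8, while KDM5A lost it without shPRRC2B polysome replicate 3. KDM5C, at 35.8, 33.4 and 38 CPM and then 27.3, 29.3 and 25.1 CPM in polysome RNA without overlap, kept it in 12. KDM4A (-0.82, adjusted p = 0.0558) and KDM2B (0.33, adjusted p = 0.241) did not pass the test by edgeR, but KDM4A was called lower by DESeq2, with genes of at least 1 count kept, and without shCtrl polysome replicate 3 or shPRRC2B polysome replicate 2.

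KDM3A, a demethylase that removes a repressive mark from histone H3, was the gene that rose in TE. Its polysome levels were 14.3, 6.18 and 8.43 CPM in shCtrl and 16.9, 12.5 and 13.0 CPM in shPRRC2B, overlapping groups, while its total RNA went from 80.9, 80.8 and 78.3 CPM to 62.6, 63.5 and 65.0 CPM without overlap. The log2 TE change was 0.87 (SE 0.28, adjusted p = 0.031, edgeR). The call was kept in 2 of the 12 fits without 1 library, those without shCtrl polysome replicate 1 (1.25) and without shPRRC2B polysome replicate 2 (0.92), and lost in the other 10, with values from 0.58 upward.

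Set side by side within 20 families of paralogs, 44 of the genes showed pairs that moved alike and pairs that did not. CREBBP and EP300, BAZ2A and BAZ2B, KMT2C and KMT2D, BAZ1A and BAZ1B, CHD3 and CHD4, and KMT2E and SETD5 were among the pairs called lower in both members. In 4 pairs 1 member was called lower and the other was not: KAT6A and KAT6B (-1.94 and -0.40), CHD1 and CHD2 (-1.79 and 0.03), KDM2A and KDM2B (-0.83 and 0.33), and KDM3B and KDM3A (-1.28 and 0.87). The differences between paralogs were not tested. For KAT6B, CHD2 and KDM2B a value short of the threshold does not show an absence of change.

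**Figure D3:**
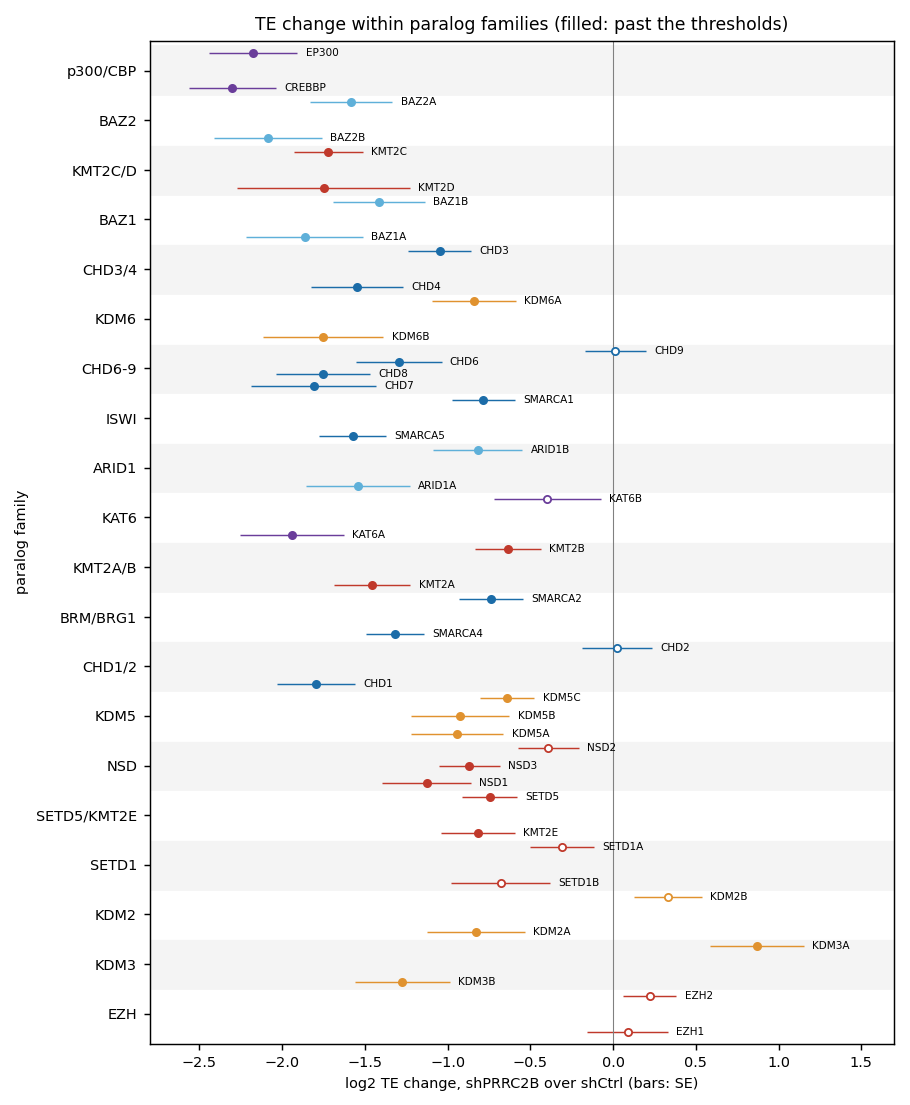
Log2 TE change (shPRRC2B over shCtrl) with its SE for the 44 genes that belong to a paralog family, by family, with filled points for genes past the thresholds and colors for the role of the gene. CREBBP and EP300 lie lowest at -2.30 and -2.18, and KDM3A at 0.87 lies opposite to KDM3B at -1.28.

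The lower TE lay mainly in polysome RNA. Polysome RNA fell for 38 of the 54 genes and rose for 0 (all genes: 21.4% lower and 18.4% higher), with a median log2 change of -0.88 against -0.01 for all genes. The count of 0 is that of the edgeR fit described. In it KDM3A, KDM2B and CHD9, 3 genes, were higher at an unadjusted p below 0.05, DESeq2 called 0 higher, limma called 1, and other edgeR settings called up to 4, the latter with the length trend removed. That setting called 26 of the 54 genes lower in polysome RNA (48.1%, against 20.3% of all genes with a length). Its median log2 change was -0.49, against -0.02 for all genes. Total RNA rose for 14 genes and fell for 3 (all genes: 14.9% and 14.1%), with a median of 0.27 against 0.04. With the trend on transcript length removed, 7 genes rose in total RNA (13.0%, against 13.8% of all genes with a length), with a median of 0.11 against 0.03, and fits without 1 library gave 9 to 12. These comparisons use the same libraries as the TE change and are not independent of it. Of the 41 genes lower in TE, 24 were called lower in polysome RNA alone, 9 were called higher in total RNA and lower in polysome RNA, 4 were called higher in total RNA alone, 2 were called lower in both (SMARCA1 and SETD5), and 2 were called in neither fraction. The 4 with a rise in total RNA alone were ARID1A, NSD1, KDM5A and INO80. The 3 genes lower in total RNA were EZH2 (-0.76), SETD5 (-0.73) and SMARCA1 (-0.57). How many of all genes had each combination of calls was not counted, so the counts by combination stand without a background.

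The 9 genes called in opposite directions were CREBBP, EP300, BAZ2B, BAZ1A, BPTF, TRRAP, CHD8, BAZ1B and ARID2, which are co-activators, scaffolds and large remodeller subunits with 1 motor, CHD8. Both calls were kept in every fit without 1 library for 4 of them, CREBBP, EP300, BAZ2B and CHD8. With the length trend removed, 3 kept both calls (CREBBP, EP300 and BAZ2B), while BPTF, BAZ1A, BAZ1B, TRRAP and ARID2 lost the call in total RNA and CHD8, BAZ1B and ARID2 that in polysome RNA. For BPTF the rise in total RNA was 0.51 and crossed the 0.5 threshold in some fits, from 0.46 to 0.56, so its call there was kept in 5 of 12, while BAZ1A, ARID2 and TRRAP kept theirs in 4, 4 and 6, and BAZ1B in 9. The polysome call of ARID2 was kept in 2 of 12. The largest falls in polysome RNA were those of ASH1L (-2.01), KDM6B (-1.87) and KMT2C (-1.72), none of which was called in total RNA.

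**Figure D4:**
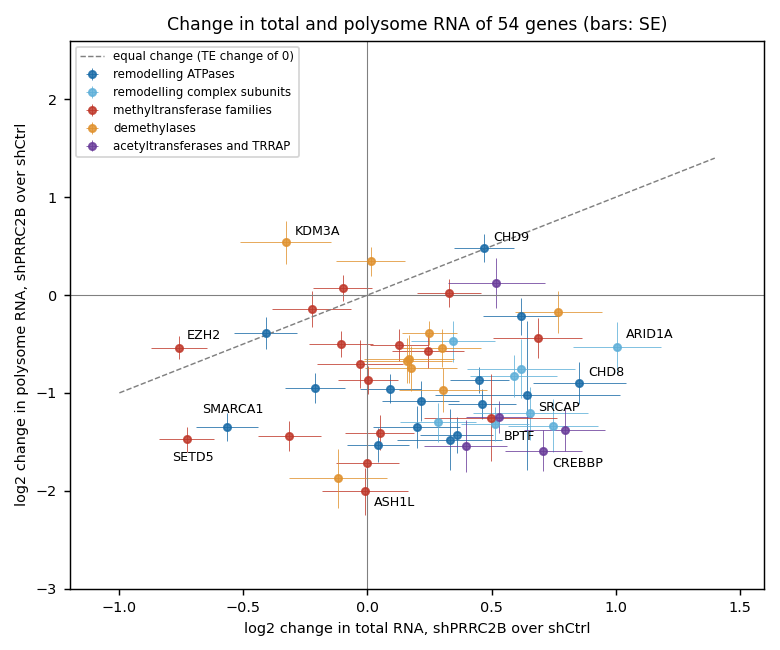
Log2 change in total RNA (x axis) and in polysome RNA (y axis), shPRRC2B over shCtrl, for the 54 genes with SE bars and colors for the role, and a dashed line where both changes are equal. Most genes lie below the line, with CREBBP at 0.71 and -1.59 and SETD5 at -0.73 and -1.48, while CHD9 lies on it and KDM3A above it.

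Within each line the 54 genes were depleted from polysome RNA relative to total RNA. In shCtrl cells 54 of 54 were lower in polysome RNA and 0 higher, with a median log2 ratio of -2.90, where 39.8% of all genes were lower, 32.5% were higher and the median was -0.22. In shPRRC2B cells 53 were lower and 0 higher, with a median of -3.83 (all genes: 42.3% lower, 36.6% higher, median -0.22), and EZH2, at -0.45, was the exception. The lowest ratio in shCtrl cells was that of KMT2D at 2.65%, and it was 0.78% in shPRRC2B. Per kilobase of the canonical transcript, SMARCA4 (56.5 CPM per kb), KDM5C (46.0) and EZH2 (42.6) had the highest levels in shCtrl total RNA, and BAZ2B (2.12) and SRCAP (1.61) the lowest. In shCtrl polysome RNA EZH2 was at 26.8, SMARCA4 at 6.31 and BPTF at 1.34 CPM per kb.

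Transcript length moved with these changes, in all genes as well as in this set. The canonical transcripts of the 54 genes ran from 2654 to 20635 nt with a median of 8390.5 nt, against 3039.5 nt for the 15762 genes tested that have a length. Spearman's correlation of the TE change with length was -0.48 over the 54 genes and -0.41 over all genes with a length, and with coding length it was -0.54 over the 54 genes. It was -0.08 with the length of the 3' UTR over the 54 genes. Over the 13609 genes tested with a coding length it was -0.34 with coding length. With the length of the 3' UTR it was -0.35 over 15762 genes. Only 13598 of them have a 3' UTR length, and those without a 3' UTR entered as 0. The values over all genes thus cover unlike sets. They cannot tell whether the gap between coding and 3' UTR length in the 54 genes holds over all genes. The correlations describe genes measured in the same libraries and carry no p. The 41 genes lower in TE had a median coding length of 5736 nt and the other 13 one of 4611 nt.

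Once a smooth trend on length had been taken out of each library, TE fell for 21 of the 54 genes and rose for 5 (all genes: 12.6% lower and 9.33% higher), with a median log2 change of -0.51 against -0.04. Genes that remained lower included CREBBP (-1.55), EP300 (-1.49), BAZ2B (-1.43), BAZ1A (-1.42), ASH1L (-1.21), BPTF (-1.08) and SMARCA4 (-0.86). By role, 4 of 5 in the acetyltransferase group, 8 of 15 ATPases, 5 of 8 remodeller subunits, 3 of 16 of the SET-domain family and DOT1L, and 1 of 10 demethylases, KDM6B, were called lower. CHD9, CHD2, DOT1L, KDM2B and KDM3A were called higher (0.79, 0.73, 0.81, 0.75 and 1.21). With the trend removed, 47 genes in shCtrl and 50 in shPRRC2B were lower in polysome than in total RNA. Of all genes with a length, 31.7% were lower in shCtrl and 36.7% in shPRRC2B. All 47 and 49 of the 50 had been called lower before, and the other was EZH2.

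**Figure D5:**
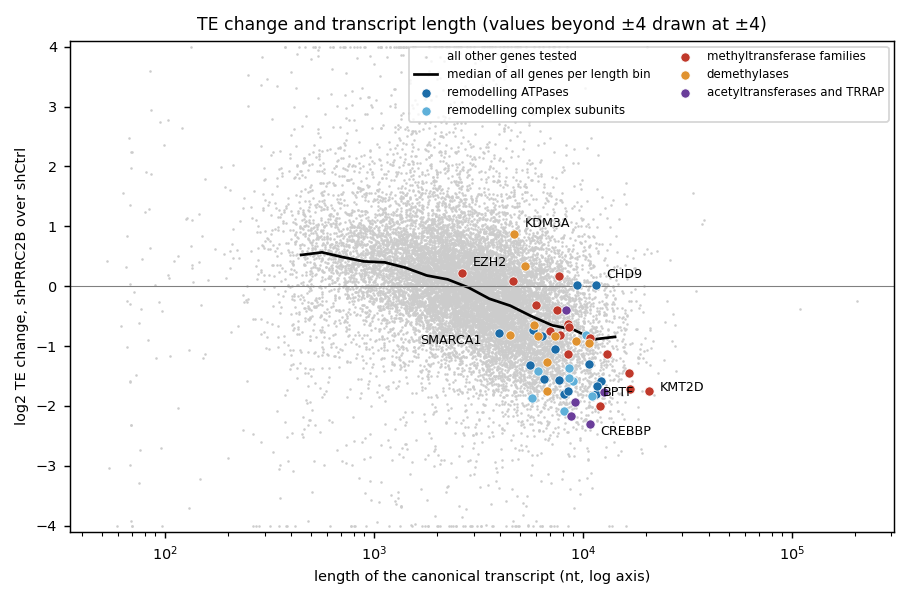
Log2 TE change (y axis, values beyond ±4 drawn at the edge) against canonical transcript length in nt (log axis) for all genes tested that have a length (grey), the 54 genes by role (colors) and the median of all genes per length bin (black line). The 54 genes lie at the long end, and CREBBP and BPTF lie below the line while CHD9, KDM3A and EZH2 lie above it.

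Of the 10 genes with a listed contact site, 9 fell in TE and SRCAP did not pass the test (median log2 change -1.76). Of the 44 others 32 fell and 1 rose (median -0.93). With the length trend taken out the counts lower were 7 of 10 and 14 of 44, and no test was made of this difference, since the lists at hand are not complete. BPTF, SMARCA4, CHD8 and CREBBP, whose windows are printed, were among the 7. So were TRRAP, whose longest run was 6 bases, BAZ2B, whose site was labelled 5' UTR, and KAT6A, whose site was labelled 3' UTR. A tie between such runs and the TE change was not tested. The paper counted an mRNA as bound where sites of full-length PRRC2B and P2 overlapped. Of the 10 genes only BPTF had sites listed with both, so the 10 are not the paper's bound set.

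Partner genes, 107 subunits of the same complexes and further enzymes of the same classes that are not among the 54, were looked at beside them. Of the 103 tested, 27 fell in TE (26.2%, against 16.4% of all genes) and 10 rose (9.71%, against 10.7%), with a median log2 change of -0.26. With the length trend removed 21 fell (20.4%, against 12.6% of all genes) and 7 rose (6.8%, against 9.33%). The canonical transcripts of the 107 had a median length of 3402 nt. The lowest among those called were INO80D (-2.60), a subunit of the INO80 complex with 25, 41 and 37 polysome counts in shCtrl and 6, 15 and 3 in shPRRC2B, HCFC1 (-2.05), a cofactor of the SET1 complexes, and SMARCC1 (-1.87), the SWI/SNF core scaffold. The highest among those called were PHF19 (1.66), a PRC2 accessory subunit, BCL7C (1.05, and 0.54 with its call lost once the length trend was removed), a small SWI/SNF subunit, and WDR5 (0.91), the scaffold shared by the KMT2 and SETD1 enzymes. SMARCC1 thus fell with SMARCA4 in TE while BCL7C rose in the main fit, both picked as extremes of the partner list. In polysome RNA BCL7C went from 264, 189 and 169 CPM in shCtrl to 326, 343 and 463 CPM in shPRRC2B. Of the 15 SWI/SNF partners tested, 5 fell in TE and 1 rose, and with the length trend removed 3 fell and 0 rose.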

How the data were processed

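The authors deposited raw counts of read pairs per gene name for 12 HEK293T libraries (2 lines, 2 RNA fractions, 3 replicates each). Per the labels and methods, reads were demultiplexed (bcl2fastq 2.19.0), trimmed (Trimmomatic 0.36), mapped to GRCh38 (HISAT2 2.1.0 per the labels) and counted by featureCounts (Subread 2.0.1) on GENCODE 38. The options given name no strand setting, and pairs that hit several genes were not counted. The count table held 0 columns of other samples. Library totals were 9855734 to 20837542 counts.

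Counts were fitted with edgeR 4.0.16 in R 4.3.3 (TMM over 12 libraries, filterByExpr with a minimum count of 10, 4 group means, glmQLFit and glmQLFTest), with Benjamini-Hochberg adjustment over 18166 genes, and calls needed adjusted p below 0.05 and a log2 change larger than 0.5 in size. SEs are those of the fitted log2 change. The scripts were tested on simulated data. DESeq2 1.42.0, limma 3.58.1 on log2(CPM + 1), other scalings, filters, blocks and a lowess length trend (span 0.3) were alternatives. Lengths and positions come from canonical GENCODE 44 transcripts on GRCh38. Values were given for BPTF, the genes with a listed PAR-CLIP site, the 5 lowest and 5 highest in TE, the 3 largest rises and falls in each fraction, opposite calls, paralogs, and the 3 lowest and 3 highest partner genes among those called, and for other members as examples chosen after their values were seen. The members, lists and rules were chosen with earlier results of these data known. Replicates are biological per the labels, which do not say whether they were separate cultures, so p-values measure the spread between these samples.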

Additional observations from a re-analysis of the deposited data

Results flagged for a closer look

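The following 9 genes moved in opposite directions in the 2 fractions, called higher in total RNA and lower in polysome RNA of the shPRRC2B line, and the difference between the fractions was tested by the TE interaction in edgeR. The log2 TE change was -2.30 for CREBBP, -2.18 for EP300, -2.09 for BAZ2B, -1.86 for BAZ1A, -1.83 for BPTF, -1.78 for TRRAP, -1.75 for CHD8, -1.42 for BAZ1B and -1.37 for ARID2. The share of all genes with such opposite calls was not counted. With the trend on transcript length removed, 3 of the 9 (CREBBP, EP300 and BAZ2B) kept both calls. The adjusted p ran from 2.39e-05 for CREBBP to 0.0109 for ARID2.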

How the results depend on the processing

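The fall in TE was called for 41 genes and kept in every fit without 1 library by 34 of them, and in those fits and all other alternatives by 20. INO80, ARID1B, KMT2B, KDM2A, KDM5A, KDM5B and KDM6A were the 7 that lost it without some library. NSD2 (-0.55 without shPRRC2B polysome replicate 2) and SETD1B (-0.94 without shCtrl polysome replicate 1) gained one, as did KDM4A without shCtrl polysome replicate 3 or shPRRC2B polysome replicate 2 (lowest value -1.15), KAT6B without shPRRC2B polysome replicate 1 and SRCAP without shCtrl polysome replicate 1 or 3. Leaving out 1 library at a time gave 36 to 42 genes lower and 0 to 1 higher in TE, with medians of -1.31 to -1.01. In total RNA it gave 9 to 12 higher, with medians of 0.22 to 0.29, and in polysome RNA 35 to 40 lower and 0 to 1 higher, with medians of -1.18 to -0.82. Polysome against total RNA had medians of -2.94 to -2.84 in shCtrl and -4.19 to -3.81 in shPRRC2B, with 53 to 54 genes lower. The TE change of SRCAP ran from -2.24 to 0.56, reversed without shCtrl polysome replicate 2, and that of EZH1, not called, to -0.10 and -0.07 without 1 library. The low polysome counts limit these values: 3 genes had a shPRRC2B polysome library under 10 counts.

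Scaling by total counts gave 9 genes higher in total RNA, a median there of 0.19, and medians of polysome against total RNA of -3.90 in shCtrl and -4.78 in shPRRC2B; TMM within each fraction gave 0.22, -3.90 and -4.77, and 2 genes higher in polysome RNA. Both scalings moved the median of all genes in these fraction comparisons from -0.22 to -1.22 in shCtrl and to -1.16 in shPRRC2B, and relative to it the genes stayed at -2.68 in shCtrl and at -3.61 to -3.62 in shPRRC2B. The share of calls that were higher went from 45.0% to 23.1% and 23.0% in shCtrl, from 46.4% to 29.6% and 29.7% in shPRRC2B, and from 51.3% to 41.8% in total RNA under total counts. Keeping genes with at least 1 count gave medians of 0.23 in total RNA and -3.02 in shCtrl. Asking for at least 10 counts in every library, which tests 51 of the genes, gave 0.22 and -2.81 and 2 genes higher in polysome RNA. limma, and edgeR with no minimum log2 change, each gave 1 gene higher in polysome RNA.

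Removing the length trend gave 5 genes higher and 21 lower in TE (median -0.51), 7 higher in total RNA (0.11), 4 higher and 26 lower in polysome RNA (-0.49), and medians of -1.19 in shCtrl and -1.73 in shPRRC2B. Together with the replicate block it gave 5 and 20 in TE (-0.51), 7 in total RNA (0.11), 4 higher and 25 lower in polysome RNA (-0.48), and -1.2 and -1.73. The replicate block alone left 41 genes lower and 1 higher in TE and gave 1 higher in polysome RNA, and a block within each line gave 40 lower. No pairing by the shared numbers was seen. Same-numbered libraries had correlations of deviations from -0.22 to 0.17 over 18 pairs, 2 of them above 0.1, and 2 of 12 libraries correlated best with their own number. Total and polysome RNA of the same line and number had values from 0 to 0.07. Deviations from means of 3 libraries cannot settle whether a shared number means a shared culture, which the labels do not say.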
